A study of Homo sapiens with 2 samples.

Results

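The binding sites of IGF2BP3 on 9 regulators of the integrated and endoplasmic reticulum (ER) stress responses are described here: ATF4, DDIT3, XBP1, ERN1, ATF6, PPP1R15A, PPP1R15B, TRIB3 and CHAC1. These 9 of the 20046 protein-coding genes of GENCODE 44 were chosen by name for their role in the pathway. A site was counted when a peak of either replicate overlapped the annotated span of the gene on hg38. This gave 16 of the 21142 peaks of replicate 1 and 23 of the 20799 peaks of replicate 2.

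IGF2BP3 binds mRNA, and the study takes it to recognise the modified base N6-methyladenosine (m6A). Its sites were mapped by LACE-seq, in which RNA is crosslinked to protein by UV light and pulled down with an antibody, and cDNA ends are amplified linearly. Both libraries came from OE-19, an established line of adenocarcinoma of the esophagogastric junction for which the labels name no stress treatment, and they form 1 group of 2 replicates. The RNA bound to an IGF2BP3 antibody was cut with MNase and no control library was analysed here. The study calls the replicates biological, but nothing says that they were separate cultures, so every spread given below is the spread between these libraries.

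Cells under ER stress use several sensors at the ER membrane. ERN1 encodes IRE1α, an endonuclease that removes a short intron from the XBP1 mRNA in the cytoplasm, so that the spliced form encodes an active transcription factor. ATF6 is cut by Golgi proteases and its free part enters the nucleus. Kinases such as PERK phosphorylate the initiation factor eIF2α, which lowers general translation while short upstream open reading frames (uORFs) in the 5′ UTR let the mRNAs of ATF4, DDIT3 (CHOP) and PPP1R15A (GADD34) be translated. PPP1R15A and PPP1R15B (CReP) direct a phosphatase to eIF2α and so reverse the signal. TRIB3, a pseudokinase, and CHAC1, a glutathione-degrading enzyme, are known targets of ATF4 and CHOP.

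Depth was given by the number of reads stacked at each peak summit, called the pileup, which was recovered from the deposited fold and p-value. The median pileup over all peaks was 22 in each list, and the central range (5th to 95th percentile) ran from 8 reads to 75 and 77. All 6 epithelial markers that were looked up (KRT8, KRT18, KRT19, EPCAM, CDH1 and ERBB2) had overlapping peaks in both replicates. Of 6 markers of other cell types, CD68 also had overlapping peaks in both replicates, with 69 reads at the summit in each. PTPRC had a peak in replicate 1 alone and COL1A1 in replicate 2 alone, and CD3E, PECAM1 and COL3A1 had none. The lists hold no RNA level, so more RNA of a gene and more IGF2BP3 on each RNA cannot be told apart, and a gene without a peak is not shown to be unbound.

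Upstream reading frames were located first, because the position of IGF2BP3 relative to them was the question asked of these genes. A uORF began at an AUG in the 5′ UTR of the canonical transcript (MANE Select, or the Ensembl canonical form for XBP1) followed by an in-frame stop codon. In-frame AUGs with the same stop codon were counted as 1 uORF, from the first AUG. AUGs that only extended the main frame were left out. The canonical transcripts of 5 members held 11 uORFs, with 3 in ATF4 and 2 each in DDIT3, PPP1R15A, PPP1R15B and TRIB3. The canonical transcripts of XBP1, ERN1, ATF6 and CHAC1 held none. Over all protein-coding genes, 40.6% had a canonical transcript with a uORF. The start of each uORF is given to fix the places to which peaks are related, as DNA letters of the gene's strand in hg38, with the start codon in capitals and 9 nt on either side.
ATF4 uORF 1, chr22:39520577-39520597, plus strand: cgcccacagATGtagttttct
ATF4 uORF 2, chr22:39520639-39520659, plus strand: acggccaccATGgcgtattag
ATF4 uORF 3, chr22:39520738-39521360, plus strand, spliced across 2 exons: gcttaagccATGgcgcttctc
DDIT3 uORF 1, chr12:57520469-57520489, minus strand: gagcgtatcATGttaaagatg
DDIT3 uORF 2, chr12:57517427-57517714, minus strand, spliced across 2 exons: tgaaagcagATGtgcttttcc
PPP1R15A uORF 1, chr19:48872446-48872466, plus strand: gttgatcttATGcaagacgct
PPP1R15A uORF 2, chr19:48872545-48872565, plus strand: gagggtgagATGaacgcgctg
PPP1R15B uORF 1, chr1:204411679-204411699, minus strand: ctcctatccATGgtgttgaag
PPP1R15B uORF 2, chr1:204411631-204411651, minus strand: cccgccaggATGgaagtcgca
TRIB3 uORF 1, chr20:380796-380816, plus strand: gtgcagcggATGcagaggaga
TRIB3 uORF 2, chr20:380831-380851, plus strand: gcgcgggggATGgtgcgatcc
The 3 uORFs of ATF4 were 1, 3 and 59 codons long without the stop codon, and the longest ran 83 nt into the main CDS in another frame. The second uORF of DDIT3 (73 codons) likewise overlapped the CDS, by 190 nt. The other 9 uORFs ended before the main start codon and ranged from 1 codon in ATF4 to 77 codons in TRIB3. Each of the 11 starts with its flanks (31 nt) occurred once in the genome.

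All 9 members had a peak in replicate 1 and in replicate 2, where 41% and 42.2% of protein-coding genes had one, and 34.7% had one in both. Overlapping peaks of the replicates were found in 8 members, all except ERN1, beside 30.5% of protein-coding genes and 88% of those with a peak in both. The number of peaks per member ran from 1 to 4 (replicate 1) and 1 to 6 (replicate 2), with the most on TRIB3 each time. Of the member peaks, 14 of 16 (87.5%) in replicate 1 and 15 of 23 (65.2%) in replicate 2 overlapped a peak of the other list, beside 60.1% and 61.2% of all peaks. The 8 peaks of replicate 2 without a partner lay on ERN1, TRIB3, XBP1 and ATF6, and the 2 of replicate 1 lay on ERN1.

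The uORF was under a peak of both replicates in 2 of the 5 members that have one, DDIT3 and PPP1R15B. TRIB3 was added in replicate 2 alone, and ATF4 and PPP1R15A had no peak over a uORF of the canonical transcript in either replicate. With the uORFs of any coding transcript, all 9 members had a uORF, and ATF4 and CHAC1 also had a peak over one in both replicates. For these 2 genes the touched bases lay outside the canonical 5′ UTR, of which no base was covered. Along the canonical transcript, covered bases began 160 and 163 nt after the main start codon in ATF4 and 267 and 325 nt after it in CHAC1. No share over all genes was counted for this wider definition, and the shares below are for canonical transcripts. In terms of reading frames, a peak touched 3 of the 11 in replicate 1 and 5 in replicate 2, and covered 2 and 4 of them whole. Among all genes with a uORF, 11.6% had a peak over it in replicate 1, 18.3% in replicate 2 and 9.02% in both. Among the 2851 of those genes that had a peak in both replicates, the shares were 31.2%, 46.7% and 25.7%, which is the nearer background for these 5 genes. With so few members, the counts of 2 and 3 are a description and no preference for or against uORFs can be read from them.

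**Figure D1:**
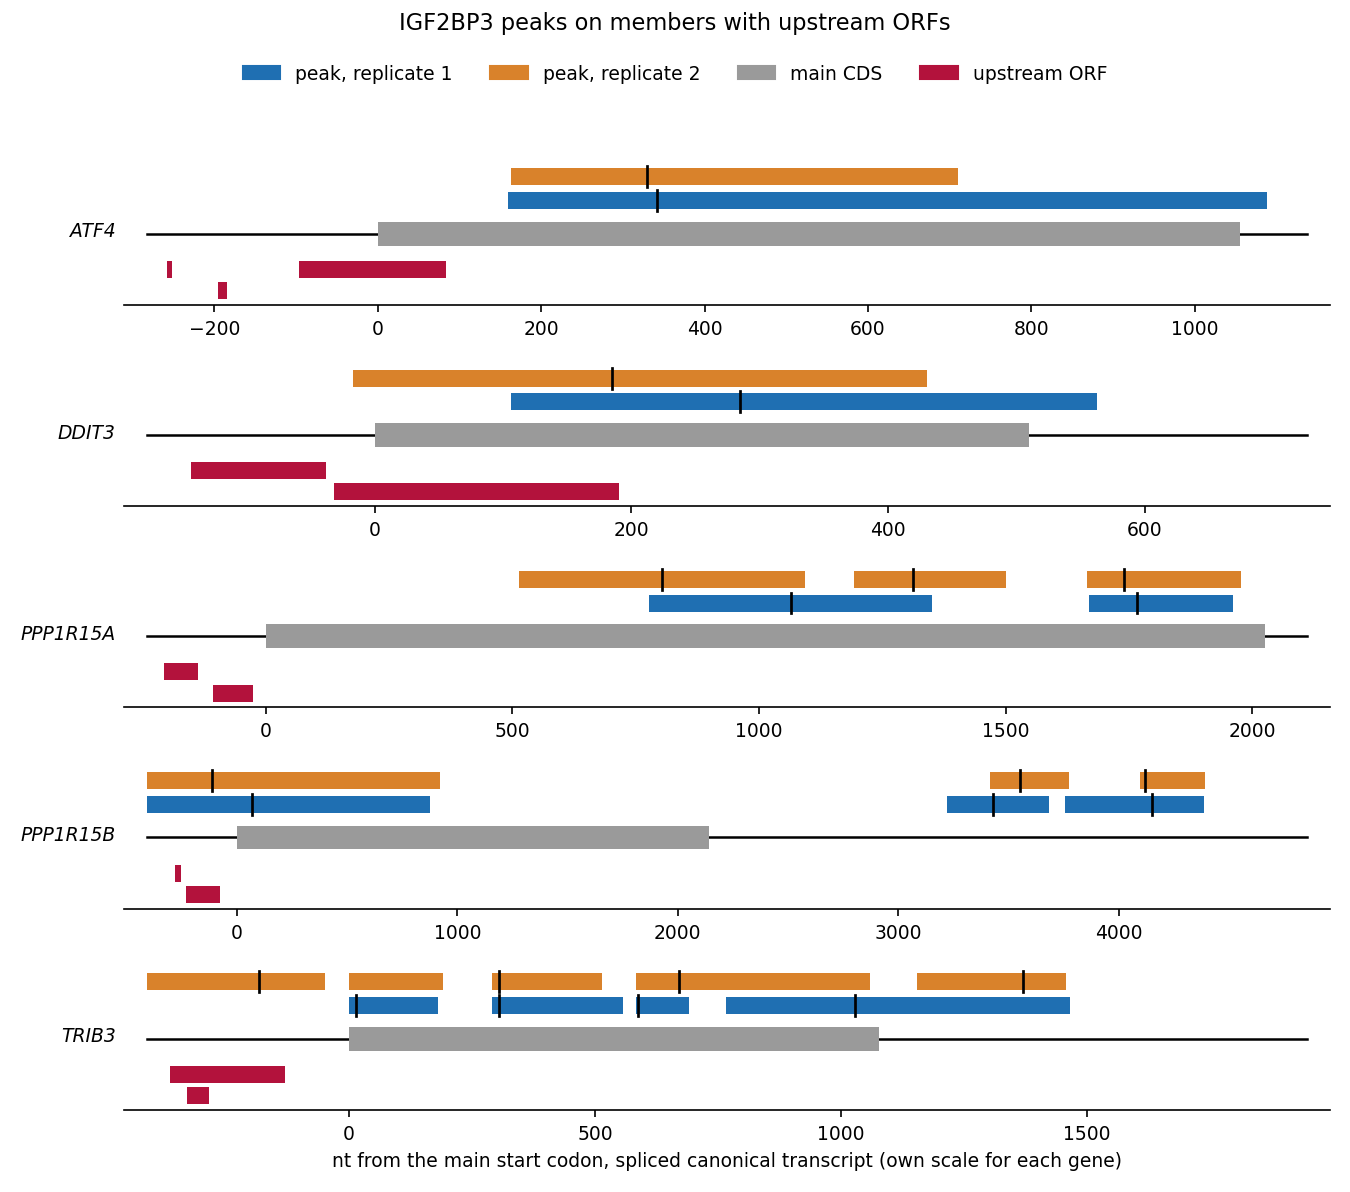
Peaks on the 5 members with a uORF, drawn along the spliced canonical transcript in nt from the main start codon, with a scale of its own for each gene. Bars above each transcript are the exonic extents of the peaks of replicate 1 (lower) and replicate 2 (upper), black ticks are exonic summits, grey boxes are the main CDS and red boxes are uORFs; peaks lie over every uORF of PPP1R15B in both replicates and over none of ATF4 or PPP1R15A.

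ATF4, the transcription factor at the centre of the integrated stress response, carried 1 peak in each replicate, and both lay downstream of its uORFs. In replicate 1 the peak (chr22:39521606-39522634) had a fold enrichment of 10.5 over the local background and a summit pileup of 54 reads (exact Poisson 95% interval 40.6 to 70.5). In replicate 2 the peak (chr22:39521609-39522256) had a fold of 7.51 and 31 reads. The summits stood 13 bp apart in the coding exon, 342 and 329 nt after the main start codon, and the peaks began 3 bp apart. The replicate 1 peak ran over the stop codon and the replicate 2 peak ended inside the CDS. Along the spliced transcript, the end of the longest uORF was 78 nt from the nearest peak edge in replicate 1 and 81 nt in replicate 2. By the same measure the first uORF was 413 and 416 nt away. No base of the 5′ UTR (282 nt) was under a peak, while 84.8% and 51.8% of the CDS was.

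DDIT3, which encodes the proapoptotic factor CHOP, also carried 1 peak per replicate, but here the peaks entered a uORF. The replicate 1 peak (chr12:57516756-57517300) had a fold of 5.78 and 19 reads, with its summit 285 nt into the CDS, and it covered the stop codon. The replicate 2 peak (chr12:57516889-57517423) had a fold of 14.1 and 70 reads, with its summit at 185 nt, and it covered the main start codon. Fold averaged 9.95 ± 5.90 (SD, n = 2), the widest spread among the member pairs. Of the 222 nt of the second uORF, 84 nt (37.8%) lay under the peak of replicate 1 and 207 nt (93.2%) under that of replicate 2. Most of these bases belong to the main CDS as well: upstream of the main start, 0 nt were covered in replicate 1 and 17 nt in replicate 2. The first uORF of 34 codons, which carries much of the known translational control, had no base under a peak. Along the spliced transcript the nearest peak edge was 145 and 22 nt away. MARS1 lies on the other strand beneath these peaks, and as the deposited peaks have no strand, reads from MARS1 cannot be told apart from those of DDIT3.

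The eIF2α phosphatase subunits differed in where their peaks lay. PPP1R15A, the stress-induced subunit, had 2 peaks in replicate 1 and 3 in replicate 2, all with their whole exonic extent inside the CDS. The strongest in replicate 1 (chr19:48874011-48874584) had a fold of 12.1 and 66 reads, with its summit 1065 nt into the CDS. Replicate 2 had 2 weaker peaks in the same stretch, with folds of 5.21 and 4.71, pileups of 33 and 30, and summits at 804 and 1312 nt. A further pair near the end of the CDS had folds of 5.08 and 7.05, 27 and 45 reads, and summits 27 bp apart at 1767 and 1740 nt. Along the spliced transcript, the second uORF was 804 nt from the nearest peak edge in replicate 1 and 541 nt in replicate 2. The whole 5′ UTR of 240 nt was free of peaks.

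PPP1R15B, the constitutive subunit, was the member whose uORFs were covered whole in both replicates. Its broad 5′ peak ran over chr1:204410534-204411914 in replicate 1 and chr1:204410491-204411948 in replicate 2, with folds of 6.46 and 7.24 (6.85 ± 0.557, SD, n = 2) and pileups of 38 and 58 reads. It held all 406 nt of the 5′ UTR, both uORFs (8 and 51 codons) and the first 878 or 921 nt of the CDS. The summits were 182 bp apart: in replicate 1 the summit was 70 nt past the main start codon, and in replicate 2 it was upstream of it, at position -112, within the second uORF. The other peaks lay in the 3′ UTR, 2 in each replicate, with folds of 4.39 to 5.32 and pileups of 39 and 30 reads in replicate 1 and 18 and 17 reads in replicate 2. The noncoding gene PPP1R15B-AS1 lies on the other strand beneath all of these peaks, and ENSG00000288934 beneath the 5′ peaks, so without strand their reads cannot be told apart from those of PPP1R15B.

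TRIB3 had the most peaks, 4 in replicate 1 and 6 in replicate 2. A peak over its 5′ UTR was called in replicate 2 alone (chr20:380711-381120), with a fold of 8.20 and 26 reads, and it covered both uORFs whole (77 and 14 codons) and 88.0% of the 5′ UTR. In replicate 1 no peak lay there. The nearest covered base was 132 nt from the longer uORF in the spliced transcript, but an intron lies between them. In the genome that uORF ended at chr20:381038 and the nearest replicate 1 peak began at chr20:387788. The pair over the main start codon had folds of 7.09 and 10.2 and pileups of 31 and 45 reads. Of the 404 and 436 bp of these peaks, 181 and 191 nt were exonic, and the replicate 2 summit lay in the intron. The pair in the middle coding exon had folds of 11.0 and 9.38 (10.2 ± 1.13, SD, n = 2), pileups of 55 and 47 reads and a summit at the same base in both replicates. Toward the 3′ end, 2 peaks in each replicate shared the final exon, with folds of 5.94 and 8.44 in replicate 1 and 9.35 and 4.29 in replicate 2. An intronic peak downstream of the first exon (fold 5.72, 18 reads) was called in replicate 2 alone.

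The length of the exon that holds the uORF differed among these genes. The narrowest peak in the lists was 293 bp wide in replicate 1 and 294 bp in replicate 2. Whether reads were extended before calling was not worked out here. Covered stretches and distances shorter than the narrowest peak are below what the lists resolve. Peak edges and covered bases therefore need not mark bound RNA, and a pileup may count extended reads. Both uORFs of PPP1R15B sat in an exon of 2326 nt and those of TRIB3 in one of 410 nt, whereas those of PPP1R15A sat in one of 231 nt. The first 2 uORFs of ATF4 lay in an exon of 190 nt, its longest crossed from that exon into one of 318 nt, and the first uORF of DDIT3 crossed exons of 97 and 48 nt. Over the genes with a uORF and a peak in both replicates, a uORF peak in both was found in 16.9% of 1294 genes whose longest uORF-holding exon was under 300 nt and in 33.1% of 1557 genes with a longer one. The part of exon length in the member results was not tested.

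CHAC1 carried 1 peak per replicate, and it had the closest summits after TRIB3 and ATF6. The summits stood 5 bp apart near the end of the CDS, 581 and 576 nt after the main start codon, and both peaks ran over the stop codon. The fold was 6.51 in replicate 1 (chr15:40955194-40955847, 20 reads) and 8.88 in replicate 2 (chr15:40955431-40956330, 40 reads), with a mean of 7.69 ± 1.68 (SD, n = 2). No 5′ UTR base of the canonical transcript was covered.

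Among the sensors and their effector, XBP1 had the deepest peak of all 9 members. Its 3′ peak started at the same base in both replicates and ran over chr22:28794733-28795862 in replicate 1 and chr22:28794733-28795915 in replicate 2. It reached 139 reads (95% interval 117 to 164) with a fold of 11.4 in replicate 1, and 106 reads with a fold of 9.97 in replicate 2 (10.7 ± 1.01, SD, n = 2). In each replicate it held 558 nt of the CDS and 442 nt of the 3′ UTR of the spliced form, stop codon included. A second peak over the 5′ end (chr22:28800347-28800732) was called in replicate 2 alone, with a fold of 6.29 and 31 reads, and reached 135 bp beyond the gene's annotated start, over a noncoding gene on the other strand (ENSG00000226471).

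The IRE1 site of XBP1 was looked up because its removal is the switch of this branch. The annotated intron of 26 nt (chr22:28796128-28796153) is shown in capitals with 2 nt on either side.
XBP1 short intron, chr22:28796126-28796155, minus strand: ccGCAGCACTCAGACTACGTGCACCTCTgc
It was not under a peak. In the genome, the nearest peak edge was 266 bp away in replicate 1 and 213 bp away in replicate 2, both on the 3′ side of the site. Both edges lay in an intron, so these distances include intron bases. In the spliced form the covered sequence began 573 nt after the main start codon in each replicate. Peaks that do not reach the site cannot tell spliced from unspliced mRNA.

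ERN1 itself, the sensor that makes this cut, was the member with no overlapping peaks. Replicate 1 had 2 peaks in the 3′ UTR, with folds of 3.32 and 3.90, the lowest of all member peaks, and 22 and 26 reads. Replicate 2 had 4 peaks elsewhere. These included a peak over the stop codon (fold 5.34, 43 reads) and peaks over intron and exon boundaries (7.0, 27 reads, and 6.72, 16 reads). The remaining peak lay over the whole 5′ UTR of 115 nt (6.54, 9 reads). The last had the lowest pileup of all member peaks. ATF6, the membrane-bound factor, had 1 pair over its stop codon, with folds of 6.34 and 7.74 (7.04 ± 0.991, SD, n = 2), 23 and 22 reads and summits 3 bp apart. A further ATF6 peak in the 3′ UTR (fold 7.0, 20 reads) was called in replicate 2 alone.

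**Figure D2:**
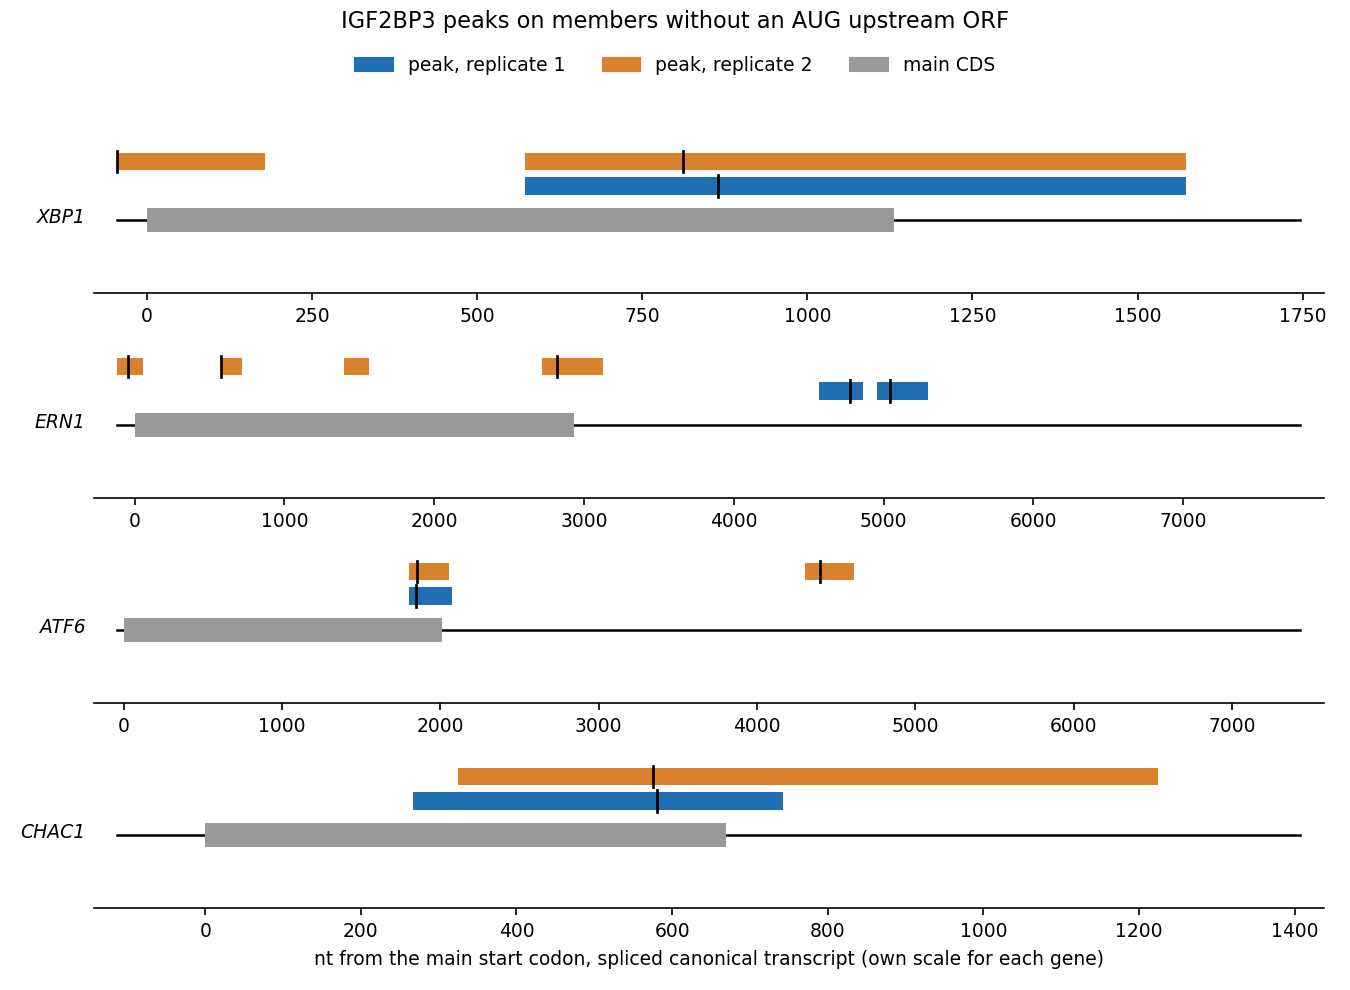
Peaks on the 4 members whose canonical transcript has no uORF, drawn as bars along the spliced transcript in nt from the main start codon, replicate 1 below replicate 2, with black ticks at exonic summits and the CDS in grey. XBP1, ATF6 and CHAC1 have a pair of peaks over the stop codon, and the peaks of ERN1 do not overlap.

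By region, the CDS held the most member summits in each replicate, and the share of all summits there was not counted for comparison. In replicate 1 the summit was in the CDS for 12 of 16 peaks and in the 3′ UTR for 4. In replicate 2 it was in the CDS for 12 of 23, in the 3′ UTR for 4, in the 5′ UTR for 4 and in an intron for 3. Any base of the CDS was touched by 12 of 16 and 17 of 23 member peaks, beside 64.5% and 65% of all peaks on protein-coding genes, where a peak over several genes was counted once for each. The stop codon was touched by 6 of 16 and 4 of 23, beside 13.4% and 12.1%, and the main start codon by 2 of 16 and 5 of 23, beside 8.65% and 13.2%. The 3′ UTR was touched by 10 of 16 and 8 of 23, beside 30.2% and 25.1%. A uORF was touched by 2 of 16 and 3 of 23, beside 4.82% and 7.54%. The 5′ UTR was touched by 1 of 16 and 5 of 23, beside 12.6% and 21.1%, so in the members and in the whole lists 5′ UTR peaks were more frequent in replicate 2.

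Measured per length, coverage was also highest in the CDS. A base of the CDS was under a peak in 8 members in replicate 1, all except ERN1, and in all 9 in replicate 2, beside 74.6% and 75.7% of genes with a peak. The median member had 49.3% of its CDS under a peak in replicate 1 and 51.8% in replicate 2, beside 12.6% and 12.7% over all genes with a peak. A CDS covered over at least 50% of its length was found in 4 members in replicate 1 (ATF4, DDIT3, TRIB3 and CHAC1) and in 6 in replicate 2, which added XBP1 and PPP1R15A, beside 9.98% and 10.4% of genes with a peak. DDIT3 had the shortest CDS (510 nt) and 79.2% and 84.3% coverage, and ERN1 had the longest (2934 nt) and 0% and 19.6%, and the part of CDS length in the difference from other genes was not tested. The 5′ UTR was covered at any base in 1 member in replicate 1, PPP1R15B, and in 5 in replicate 2 (DDIT3, XBP1, ERN1, PPP1R15B and TRIB3), beside 30.3% and 49.8% of genes. The 3′ UTR was covered at any base in 8 members and 6 members, beside 58.6% and 49.1%, and was free of peaks in both replicates only in PPP1R15A.

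**Figure D3:**
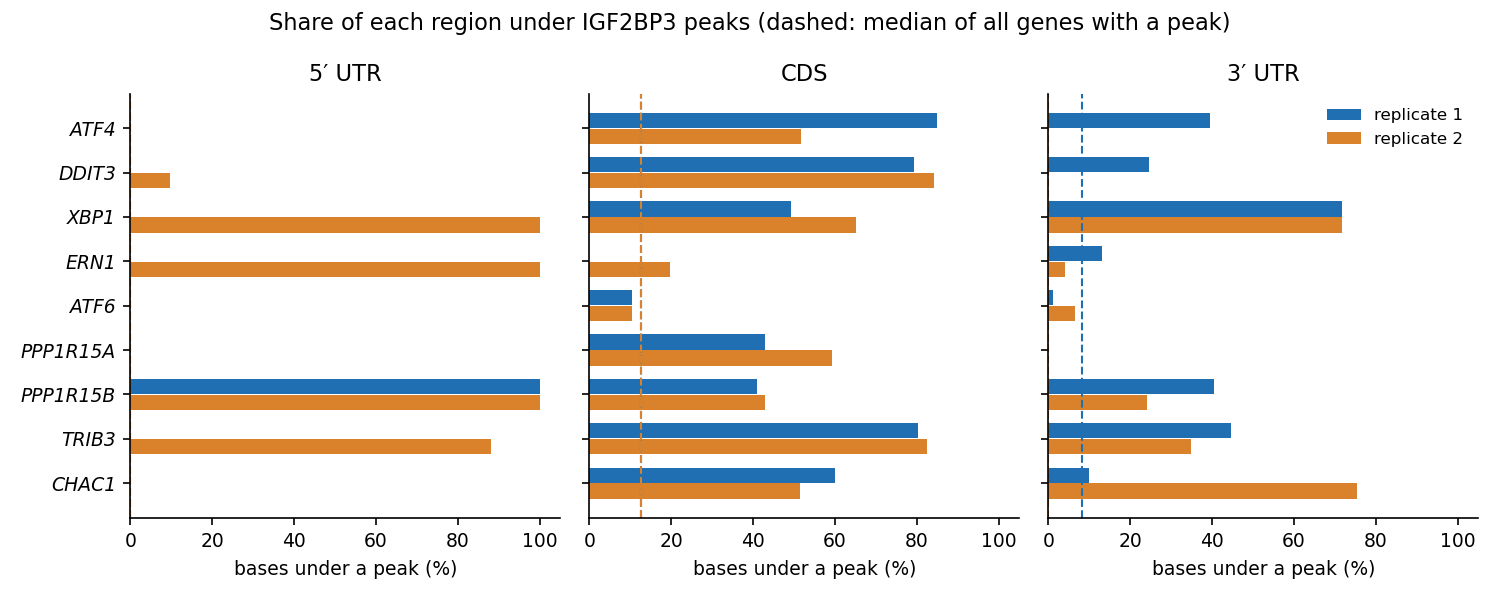
Percent of the bases of the 5′ UTR, CDS and 3′ UTR of each member's canonical transcript that lay under a peak, with bars for replicate 1 (blue) and replicate 2 (orange) and dashed lines at the median over all genes with a peak in that replicate (0% for the 5′ UTR in both and for the 3′ UTR in replicate 2). CDS bars reach 84.8% for ATF4 and 84.3% for DDIT3, and 5′ UTR bars are present in both replicates for PPP1R15B only.

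In fold the member peaks stood near the middle of their lists, and in pileup above it. The fold of replicate 1 ranged from 3.32 to 12.1 (median 6.40), and that of replicate 2 from 4.29 to 14.1 (median 7.0), beside medians of 6.89 and 7.13 over all peaks. The median member peak stood at percentile 39.9 of fold in replicate 1 and 47.8 in replicate 2. Pileups ranged from 19 to 139 (median 34.5) and from 9 to 106 (median 31), beside a median of 22 in each list. Ranked by pileup in place of fold, the median member percentile, averaged over the replicates, was 69.5 in place of 43.8.

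**Figure D4:**
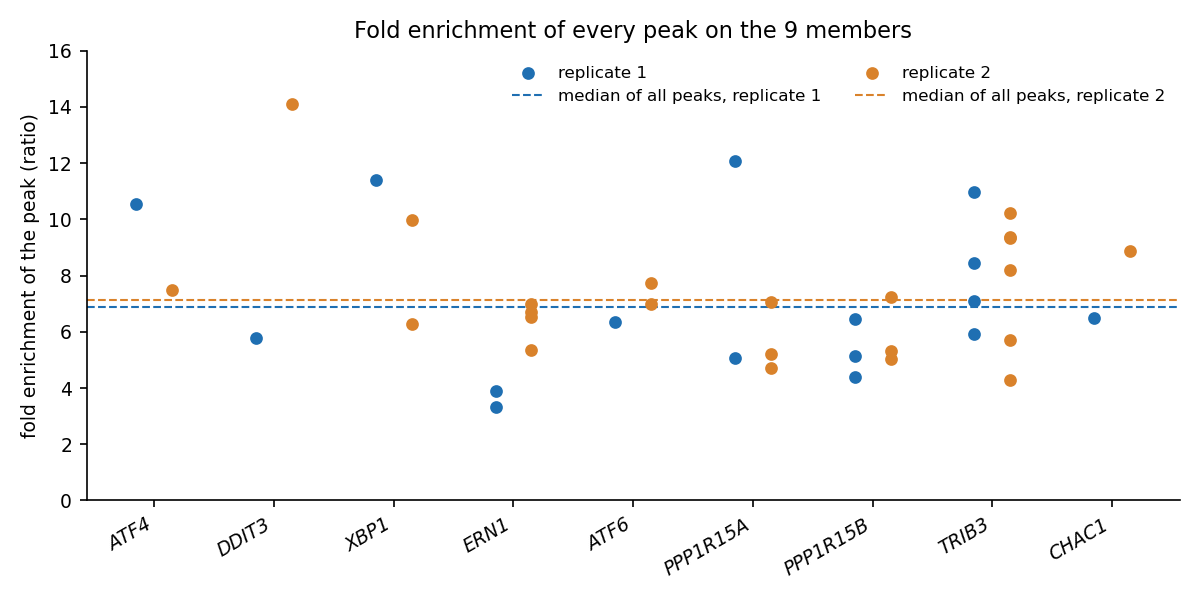
Fold enrichment of every peak on the 9 members, with a point per peak for replicate 1 (blue) and replicate 2 (orange) and dashed lines at the medians of all peaks, 6.89 and 7.13. The highest point is DDIT3 in replicate 2 (14.1) and the lowest is ERN1 in replicate 1 (3.32); the points of TRIB3 at 9.38 and 9.35 in replicate 2 lie on top of each other.

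Whether the replicates differed at the members was tested on the 17 overlapping member pairs, with an exact binomial test of the summit pileups (two-sided), adjusted by the Benjamini-Hochberg method over all 13071 pairs of the series. The test compares 2 libraries and no conditions, and it covers counting error only. Of all pairs, 14% passed an adjusted p of 0.05, with 6.94% higher in replicate 1 and 7.02% higher in replicate 2. Of the 17 member pairs 4 passed, 2 in each direction. The DDIT3 summit was 3.68 times as deep in replicate 2 (19 against 70 reads, exact adjusted p = 4.96e-06). The strongest PPP1R15A peak of replicate 1 was deeper than each of the 2 replicate 2 peaks that it overlapped (66 against 33 and 30 reads, exact adjusted p = 0.0148 and 0.00571). A TRIB3 pair in the last coding exon was deeper in replicate 2 (42 against 71 reads, exact adjusted p = 0.0462), which no longer passed when the reference share came from the median log ratio over pairs (exact adjusted p = 0.0578).

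The summits of the called pairs stood 100 bp apart in DDIT3, 261 and 247 bp in PPP1R15A and 83 bp in TRIB3. Pairs that did not pass stood up to 598 bp apart in PPP1R15B and 359 bp in TRIB3. None of the 7 member pairs with summits within 50 bp passed. Among these, TRIB3 had 55 and 47 reads (exact adjusted p = 0.750), ATF6 23 and 22 (exact adjusted p = 1), CHAC1 20 and 40 (exact adjusted p = 0.0623) and ATF4 54 and 31 (exact adjusted p = 0.0911). XBP1 had 139 and 106 reads with summits 53 bp apart (exact adjusted p = 0.168), and the 5′ peak of PPP1R15B 38 and 58 (exact adjusted p = 0.168). In simulated pairs with the depths of the series, 200 of 13071 were changed, and 21% of 2-fold changes and 77.5% of 4-fold changes were found. In the real data 1825 pairs passed, so the adjustment was less strict than in the simulation. These shares are therefore not the power of the test at the member pairs, which was not measured.

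**Figure D5:**
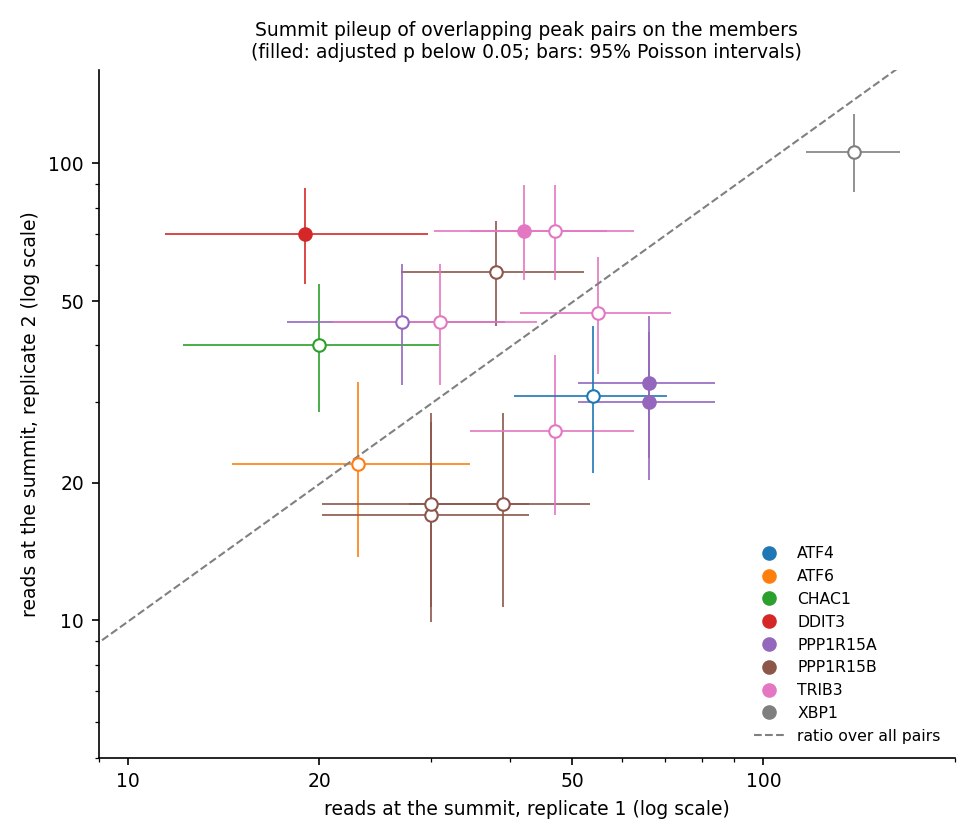
Reads at the summit in replicate 1 (horizontal, log scale) and replicate 2 (vertical, log scale) for the 17 overlapping peak pairs on 8 members, with 95% exact Poisson intervals; filled points passed an adjusted p of 0.05 and the dashed line is the ratio over all pairs (0.993). DDIT3 lies farthest above the line, with 19 and 70 reads, and the 2 filled PPP1R15A points lie below it.

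Sequences at the summits were read to look for GGAC, the core of the m6A consensus. Windows of 30 nt are shown for a selection of the summits described above, with GGAC in capitals where it occurs. Not shown are the close pairs of ATF6, of the PPP1R15A CDS end, of the PPP1R15B 3′ UTR and of the TRIB3 start codon. None of their 30 nt windows held GGAC, so the windows shown do not give its share.
TRIB3 coding exon, both replicates, chr20:391286-391315, plus strand: ggtgtaccccgtccaggaagccctggccgt
CHAC1, replicate 1, chr15:40955672-40955701, plus strand: tgggcctcaggcgcaGGACgagcacctggc
CHAC1, replicate 2, chr15:40955667-40955696, plus strand: ctctgtgggcctcaggcgcaGGACgagcac
TRIB3 last exon, replicate 1, chr20:396628-396657, plus strand: GGACtggggctGGACgaagccagggaagag
XBP1, replicate 1, chr22:28795426-28795455, minus strand: aagcacctctcagcccctcagagaatgatc
ATF4, replicate 1, chr22:39521874-39521903, plus strand: gatgaccttctgaccacgttggatgacact
PPP1R15B, replicate 2, chr1:204411508-204411537, minus strand: gatcggcctggagcagcgacgccaccgctg
In windows of 101 nt on the strand of the gene, GGAC was found at 5 of 16 member summits (31.2%) in replicate 1 and 9 of 23 (39.1%) in replicate 2, beside 29.2% of 20896 and 32.1% of 20993 combinations of a peak and a protein-coding gene, since a peak over several genes was counted once for each. TGGAC, the longer form, which contains GGAC, was found at 3 of 16 (18.8%) and 4 of 23 (17.4%), beside 10.1% and 9.93%. The windows of CHAC1 and of the ATF6 stop codon pair held 2 GGAC and 1 TGGAC in each replicate. The windows of ATF4, DDIT3, XBP1 and PPP1R15B held none in either replicate. A match is only these letters, and methylation was not measured here. All 39 member summits with their flanks (31 nt) occurred once in the genome.

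A list of 50 other genes of the pathway was counted in the same way. A peak was found in 38 in replicate 1, 39 in replicate 2 and 34 in both, and 32 had overlapping peaks, beside 41%, 42.2%, 34.7% and 30.5% of protein-coding genes. All 4 eIF2α kinases had peaks in both replicates, with an overlapping pair in 3. Peaks in both were also found in 7 of 9 other transcription factors, 6 of 9 ATF4 and CHOP target genes, 8 of 11 ER chaperones and folding enzymes and 6 of 7 genes of ER-associated degradation. Of the 8 eIF2 and eIF2B subunits 3 had peaks in both, and of the 2 proteases that cut ATF6 none did. The genes without a peak in either replicate were EIF2B3, EIF2B5, ATF3, CREB3, NUPR1, SDF2L1 and DERL3. The strongest overlapping pairs by rank of fold were on DERL1, a channel component of ER-associated degradation (17.6 and 21.5), EIF2S2, the eIF2β subunit (15.3 and 19.6), the ER-bound transcription factors CREB3L1 (16.1 and 15.7) and CREB3L2 (13.5 and 19.7), and PSAT1, an enzyme of serine synthesis (13.0 and 14.7). The lower of the replicates' percentiles of fold was at least 95.7 for these 5 genes and at most 81.9 for the member pairs, where XBP1 was highest. The 5 genes were picked from the list for the highest values of this measure, so no contrast with the members can be drawn. Of the 14 listed genes with a uORF, 6 had a peak over it in both replicates, beside 9.02% of all genes with a uORF. These were EIF2AK3 (the kinase PERK), EIF2S2, ATF5, CREB3L1, CREB3L2 and SLC7A11. Among all genes with a uORF and a peak in both replicates the share was 25.7%. That share is for a narrower set, as EIF2S1, MBTPS1 and MBTPS2 are among the 14 and had no peak in replicate 1.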

How the data were processed

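LACE-seq peaks of 2 replicates of OE-19 cells, the only group, were analysed from 1 peak list per library. Per the study's methods, reads were aligned with Bowtie and peaks called with Piranha, while the submitters' processing notes name fastp, HISAT2, MACS2 and hg38, without versions, and the deposited lists have the narrowPeak layout that MACS2 writes. Each deposited line gives a fold enrichment, a ratio of the summit over the local background, and a p-value and q-value on the −log10 scale. A deposited score column was not used. Strand is undefined and library totals are unknown.

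A whole-number pileup was then sought for each peak that gives the deposited fold and the deposited −log10 p-value (within 0.001) under a Poisson distribution. One was found for all peaks; in replicate 1, 9 peaks had more than 1 solution, none on a member. The lowest deposited −log10 q was 2.18 and 2.15. Peaks were placed on GENCODE 44 genes and canonical transcripts from 1 shared bp, and coordinates are 1-based. Intervals are exact Poisson (95%) and, like the binomial test, cover counting error only, since reads without molecular identifiers are not independent molecules. The pair test was tested on simulated data of 13071 pairs with 200 changed: 2 false calls were made at 2-fold and 7 at 4-fold. Python 3.11.15, NumPy 2.4.6, SciPy 1.17.1 and matplotlib 3.10.9 were used.

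The members, the 50 pathway genes and the markers were chosen with earlier results of these data known. All members are named whatever their values, with the 5 pathway genes whose overlapping pair had the highest lower-of-both percentile of fold, and those without a peak. Alternatives changed the peaks kept, their placement, the overlap rule, the uORF definition, the transcripts, the ranking value and which replicate was left out.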

Additional observations from a re-analysis of the deposited data

How the results depend on the processing

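All 9 members kept a peak in every replicate under all alternatives run, and members with overlapping peaks fell from 8 to 7 with a reciprocal overlap of 50% and to 6 with summits within 50 bp. When 1 replicate was left out, 16 to 23 member peaks and 38 to 39 pathway genes with a peak were counted. Members with a peak over a uORF in every replicate used then ranged from 2 to 3, and the peaks over a uORF from 2 to 3. That count of 2 members was 0 with the summit required in the uORF and 0 with the middle of the peak. With the uORFs of any coding transcript, which all 9 members have, it was 4 (DDIT3, PPP1R15B, and ATF4 and CHAC1 with no base of the canonical 5′ UTR covered). With bases upstream of the main start alone it was 1 (PPP1R15B). The mean number of uORF peaks, 2.5, became 1.5 with the summit, 1 with the middle and 5 with any coding transcript. The mean share of member peaks that overlapped the other list fell from 76.4% to 53.0% with a reciprocal overlap of 50% and 37.1% with summits within 50 bp. Member pairs called went from 4 to 0 with summits within 50 bp. The median percentile, 43.8 by fold, was 61.8 by −log10 q and 69.5 by pileup. Over all coding transcripts the median coverage, as a mean of the replicates, went from 4.80% to 11.9% in the 5′ UTR, from 50.6% to 48.8% in the CDS and from 15.5% to 32.5% in the 3′ UTR. Of 50 alternative values 35 stayed within the limits set and 15 moved. The cause of these moves was not tested beyond the stricter or wider definition itself. No paired analysis was possible because there is only 1 group. Depth limits the pair test, by an amount not measured for the member pairs, and peaks wider than every member uORF limit how a site can be placed.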
